A study of Homo sapiens with 2 samples.

Results

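The miRNAs described here are those cut from H/ACA small nucleolar RNAs (snoRNAs). They are hsa-miR-664a-3p, hsa-miR-664a-5p, hsa-miR-664b-3p, hsa-miR-664b-5p, hsa-miR-1291, hsa-miR-1248 and hsa-miR-3651, chosen by name as 7 of the 2549 miRNAs on the array. In these exosomes they lay at or below the limit of detection. None of the 7 was detected on the oe-NC-labelled array, and 2 of the 7, miR-664b-5p and miR-3651, were detected on the oe-HOTTIP-labelled array, at intensities of 8.18 and 5.86 scanner units against a mean of 3.45 for the negative control spots. The other 5 were detected on neither array, as were 82.1% of all miRNAs, while 5.06% of all miRNAs shared with the pair that detection was limited to the oe-HOTTIP-labelled array.

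RNA came from exosomes, the small vesicles that cells release, of FaDu cells, a human line of hypopharyngeal squamous cell carcinoma. The oe-NC cells received a negative control plasmid and the oe-HOTTIP cells a plasmid that overexpresses the lncRNA HOTTIP. For both groups the labels name lentivirus as the carrier while the methods describe Lipofectamine transfection of FaDu cells, so the route is not settled. The labels do not say whether the cells were a clone or a pool, and 200 ng of RNA was labelled with Cy3 for each array. Each group had a single array (n = 1), so the spread between cultures is unknown, nothing was tested, and the precision is that of 1 array. Titles and treatments were used to name the arrays, but the description field of each gives the opposite group. If that field is correct, all directions below are inverted.

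H/ACA snoRNAs fold into a pair of hairpins, each followed by a short box, and guide the dyskerin complex to the uridines of ribosomal and spliceosomal RNA that become pseudouridine. The second box, ACA, lies near the 3′ end of the molecule. A few of these snoRNAs are also cut by Dicer, without Drosha, into fragments the size of a miRNA that can enter Argonaute. The array probes read RNA by hybridization, and whether their signal came from a mature miRNA or from a longer piece of the snoRNA with the same bases was not tested.

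The mature sequences are shown from RefSeq (GRCh38.p14), which held all 7 names, with the seed (bases 2 to 8) in capitals, because the seed sets which mRNA sites a miRNA can pair with and each of the 7 members has a seed of its own.
hsa-miR-664b-5p: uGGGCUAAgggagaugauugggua
hsa-miR-3651: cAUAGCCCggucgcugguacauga
hsa-miR-664a-5p: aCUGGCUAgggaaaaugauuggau
hsa-miR-664a-3p: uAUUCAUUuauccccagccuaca
hsa-miR-664b-3p: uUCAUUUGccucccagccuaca
hsa-miR-1291: uGGCCCUGacugaagaccagcagu
hsa-miR-1248: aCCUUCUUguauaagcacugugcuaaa
No seed was shared between members. The seeds of miR-664a-3p, miR-664b-5p, miR-1248 and miR-3651 occurred in no other mature miRNA of the RefSeq table, and those of miR-664a-5p, miR-664b-3p and miR-1291 in 1 other each. The closest relatives were the 3p arms of miR-664a and miR-664b, which shared a run of 11 bases at their 3′ ends, CCCAGCCUACA, while the 5p arms shared 8 bases, AUGAUUGG. The probe sequences were not used here, so how far a probe of one arm also reads its relative is unknown.

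In the RefSeq gene table, MIR664A (miR-664a-3p at chr1:220200549-220200571 and miR-664a-5p at chr1:220200586-220200609, minus strand) overlapped SNORA36B within the span of RAB3GAP2, a subunit of a Rab GTPase regulator. MIR664B (miR-664b-5p at chrX:154768596-154768619 and miR-664b-3p at chrX:154768635-154768656, plus strand) overlapped SNORA36A within DKC1, the gene of dyskerin itself. miR-1248 (chr3:186786675-186786701, plus strand) overlapped SNORA81 in EIF4A2, a translation helicase gene. miR-3651 (chr9:92292461-92292484, minus strand) overlapped SNORA84 in IARS1, which encodes isoleucyl-tRNA synthetase. miR-1291 (chr12:48654494-48654517, minus strand) overlapped SNORA2C, also named SNORA34, in KANSL2, a chromatin complex subunit. The table lists no exons, so exon and intron could not be assigned. Its gene spans carry no strand, and the hairpin's strand was used to place each miRNA in its snoRNA.

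The members came from separate places in their snoRNAs. miR-664a-3p and miR-664b-3p ended 3 bases before the 3′ end of SNORA36B and SNORA36A, and miR-3651 ended at the last base of SNORA84. With the letters ACA in capitals, these 3 arms show the same arrangement, since in each the ACA is followed by 3 bases to the end of the snoRNA.
hsa-miR-664a-3p: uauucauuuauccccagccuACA
hsa-miR-664b-3p: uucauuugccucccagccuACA
hsa-miR-3651: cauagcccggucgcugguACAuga
The letters ACA, searched on the given strand only, stood in the last 6 bases of these 3 members and of 131 of 2370 mature miRNAs in the RefSeq table (5.53%). miR-664a-5p and miR-664b-5p began 67 and 68 bases into their snoRNAs, in the same second hairpin as their 3p arms. miR-1291 began 1 base after the 5′ end of SNORA2C and miR-1248 began 1 base before that of SNORA81. Of the detected members, miR-3651 holds the ACA letters and miR-664b-5p does not.

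**Figure D1:**
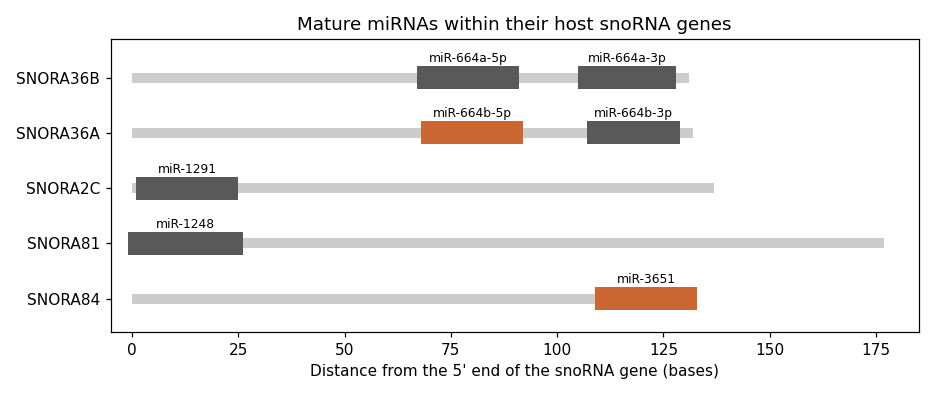
Position of the 7 mature miRNAs (thick boxes) in their host snoRNA genes (thin grey bars, drawn to scale), in bases from the 5′ end of the snoRNA. Orange boxes are the 2 miRNAs detected on the oe-HOTTIP-labelled array. The 3p arms of miR-664a and miR-664b and miR-3651 sit at the 3′ end, miR-1291 and miR-1248 at the 5′ end.

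Each member was read by 20 spots per array, 10 for each of 2 probes, and the spot values are background-subtracted intensities in scanner units. No miRNA spot was saturated. The zero of this scale is not an empty spot, because the negative control spots averaged 3.87 ± 2.37 (SD over 976 spots) on the oe-NC-labelled array and 3.45 ± 2.21 (SD over 975 spots) on the oe-HOTTIP-labelled array. Errors given for the members are SDs over spots, pooled within probes, which cover technical error only. "Detected" is the call of the scanner software, which held for 12.9% of all miRNAs on the oe-NC-labelled array and 15.3% on the oe-HOTTIP-labelled array.

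hsa-miR-664b-5p was the member whose spots were set most clearly apart between the arrays. Its spots on the oe-NC-labelled array ran from -1.71 through a median of 0.80 to 4.83, with a mean intensity of 1.30 ± 1.87 (20 spots). On the oe-HOTTIP-labelled array they ran from 3.38 through 7.90 to 11.8, with a mean of 8.18 ± 1.54 (19 spots). Of the 19 spots there, 16 were above the highest spot of the other array, while the remaining 3 overlapped with it. Both probes were higher on the oe-HOTTIP-labelled array, one at 5.96 against 0.71 and the other at 10.4 against 1.88. Even so, only 2 of the 19 spots were marked as well above background, and 11 of the 19 exceeded the mean of the negative control spots by more than 2 SD. The 3p arm of the same hairpin, miR-664b-3p, had means of -1.81 ± 2.10 and -1.83 ± 1.32 (19 spots each) and was detected on neither array.

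hsa-miR-3651, from the 3′ end of SNORA84, rested on 1 of its probes. On the oe-NC-labelled array its spots ran from -5.04 through -1.59 to 1.63, with a mean intensity of -1.53 ± 1.44 (20 spots). On the oe-HOTTIP-labelled array they ran from -2.69 through 4.30 to 16.3, with a mean of 5.86 ± 2.86 (19 spots). Of these 19, 12 were above the highest spot of the other array, and 8 exceeded the negative control mean by more than 2 SD. The mean lay below 7.28, the 95th percentile of the negative control spots on that array. The spots of the arrays overlapped because the probes disagreed. One probe stood at 11.3 ± 3.66 (10 spots), with 6 spots well above background, and the other at 0.43 ± 1.53 (9 spots), with none. On the oe-NC-labelled array these probes gave -0.53 and -2.53, so both were higher on the oe-HOTTIP-labelled array, but the second stayed under the negative control mean.

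**Figure D2:**
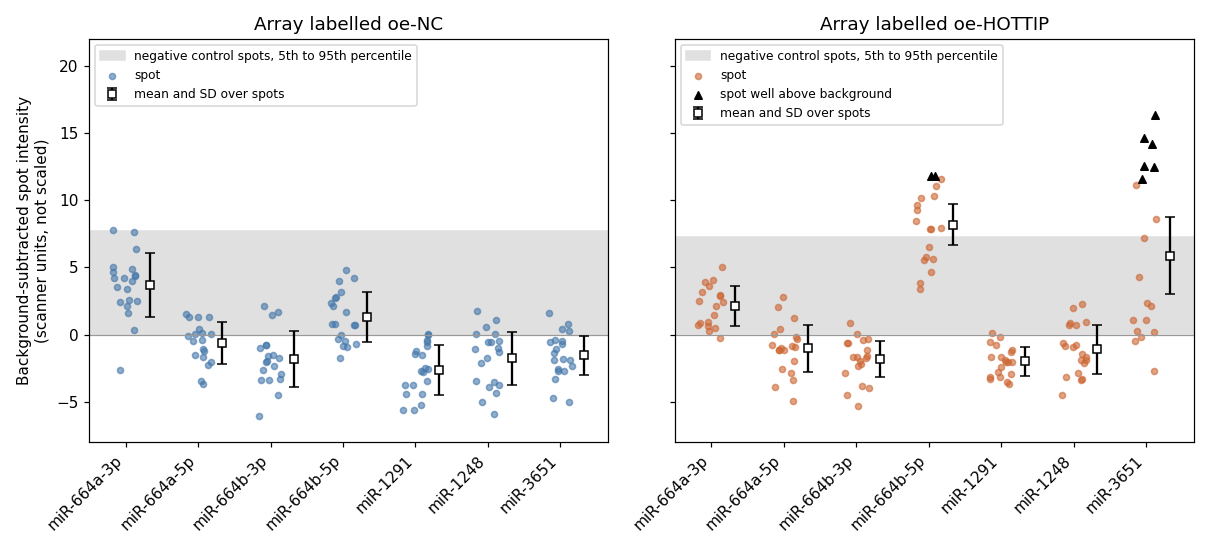
Spot intensities of each member on the oe-NC-labelled array (left) and the oe-HOTTIP-labelled array (right), in scanner units before scaling, with the mean and the SD over spots as a square and bar. The grey band holds the negative control spots from the 5th to the 95th percentile, and the spots that reach well above it belong to miR-664b-5p and miR-3651 on the oe-HOTTIP-labelled array.

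The other 5 members gave no spot well above background among the 195 spots used on both arrays. miR-664a-3p, the arm of MIR664A that ends in the ACA letters, had a mean of 3.67 ± 2.37 (20 spots, from -2.60 to 7.75) on the oe-NC-labelled array and 2.15 ± 1.49 (18 spots, from -0.24 to 5.05) on the oe-HOTTIP-labelled array. The spots of both arrays overlapped, and both means lay below those of the negative controls. The means of miR-664a-5p were -0.61 ± 1.58 (19 spots) and -1.02 ± 1.75 (20 spots). miR-1291 had means of -2.63 ± 1.87 and -1.99 ± 1.06 (20 spots each), and miR-1248 had -1.76 ± 1.98 and -1.09 ± 1.81 (20 spots each). These 4 miRNAs and miR-664b-3p were not detectable at this signal, which does not show that they were absent from the exosomes. No fold is given for a miRNA detected on neither array.

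**Figure D3:**
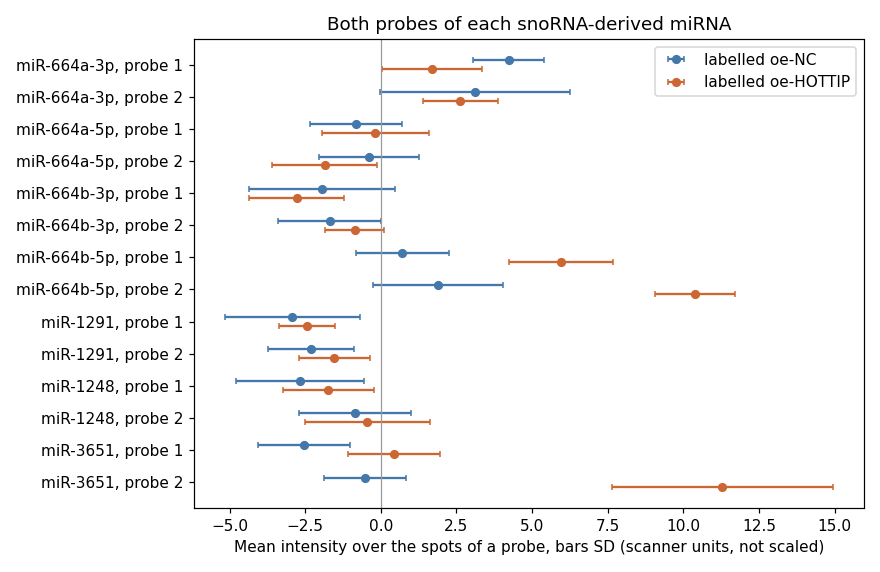
Mean intensity of each of the 2 probes of every member (points, SD over spots as bars), in scanner units before scaling, on the oe-NC-labelled array (blue) and the oe-HOTTIP-labelled array (orange). Both probes of miR-664b-5p and 1 probe of miR-3651 stand apart between the arrays, and all other means lie between -2.93 and 4.23.

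To compare the arrays, the intensities of each were scaled to the 90th percentile of the 261 miRNAs that both detected, which was 279.9 for oe-NC and 439 for oe-HOTTIP. A miRNA detected on 1 array has only a lower bound, set against its own signal on the other array or the lowest detected signal there (0.976 for oe-NC), whichever was higher. By this rule hsa-miR-664b-5p was at least 4.02-fold and hsa-miR-3651 at least 3.83-fold higher on the oe-HOTTIP-labelled array. Thus 2 of the 7 members passed the 2-fold threshold of the methods upward and none downward. Over all 2549 miRNAs, 6.08% passed upward and 4.51% downward. Since no member was detected on the oe-NC-labelled array, none could pass downward. Without scaling, 223 miRNAs in all were higher and 63 lower in place of 155 and 115. A miRNA detected only on the oe-HOTTIP-labelled array gets no bound below 1, so the direction of both members was fixed by their detection. With scaling, most miRNAs of the same detection class passed 2-fold upward. Of the 129 detected only on the oe-HOTTIP-labelled array, 83.7% did so, with a median bound of 4.46-fold over the 127 that had one. The lowest detected signal was under the negative control mean, so the bounds are not strict. With a higher floor, the signal at which 50% of miRNAs are detected (5.32 on the oe-NC-labelled array), neither member had a fold, so 0 of 7 passed, while 30.2% of those 129 miRNAs and 3.37% of all miRNAs still passed upward and 3.45% downward. The call of both members was also lost from the brightest probe, where the bounds were 1.51-fold for miR-3651 and 1.39-fold for miR-664b-5p. In that setting the floor was taken anew as the lowest detected signal of the brightest probes, and it set both bounds. Before scaling, the brightest probe read 11.3 against -0.53 for miR-3651 and 10.4 against 1.88 for miR-664b-5p.

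**Figure D4:**
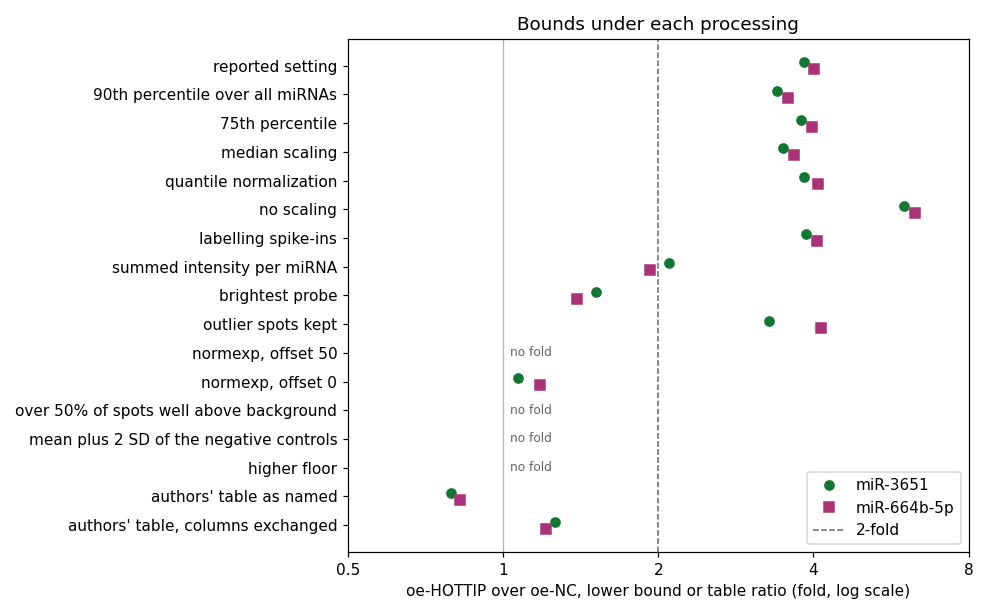
Lower bound of oe-HOTTIP over oe-NC (fold, log axis) for miR-3651 (circles) and miR-664b-5p (squares) under the reported setting and each alternative, with the 2-fold threshold dashed. For the authors' table the point is the ratio of its values with the floor read as 0. Changes of scaling keep both above 3-fold, while other summaries, floors, detection rules and background corrections take at least 1 of them below 2-fold or leave no fold.

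In the authors' normalized table, on a log2 scale, 5 members were at the floor of 1e-06, which stands for not detected, in both columns. miR-664b-5p stood at 0.28 and miR-3651 at 0.34 in the column named for oe-NC, and both lay at this floor in the oe-HOTTIP column, the opposite of the scanner output. The columns as a whole ran this way. All 388 miRNAs listed above the floor under oe-NC were detected on the oe-HOTTIP-labelled array, and 261 of them on the oe-NC-labelled array. The files do not settle which names are right, so the array on which both members were detected carries a disputed label.

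Other small RNAs of related origin were set beside the members. Of the 1560 miRNA genes in the RefSeq hairpin table, 7 overlapped a snoRNA or small Cajal body RNA gene. The genes of the members are 5 of these 7. RefSeq held 2248 of the 2549 array names, so the 7 genes may not be a full list. From the rest of the 7 genes the array held 2 further miRNAs, miR-6516-5p and miR-6516-3p from SCARNA16. Neither was detected on either array. The arms of miR-3607 and miR-3653 come from box C/D snoRNAs, though their genes are not among the 7. They were likewise undetected on both arrays (4 of 4). Over all miRNAs, 82.1% were detected on neither array. The miR-320 family, which also bypasses Drosha, was detected on both arrays in 5 of 5 members, with log2 differences of oe-HOTTIP minus oe-NC from -1.44 to 0.07 and a median of -0.20, against 0.02 over all 261 miRNAs. Of 7 entries that resemble transfer, ribosomal or mitochondrial RNA, 5 were detected on the oe-NC-labelled array and 6 on the oe-HOTTIP-labelled array. The log2 differences of the 5 that both arrays detected had a median of 0.91. All but miR-4485-5p (-2.39) were higher on the oe-HOTTIP-labelled array. The values were 0.82 for miR-1260b, 0.91 for miR-1260a, 1.87 for miR-3648 and 4.21 for miR-4485-3p. The miR-4485-3p signal on the oe-NC-labelled array was 2.29, under the negative control mean of 3.87 there. miR-1973 was detected only on the oe-HOTTIP-labelled array, with a bound of 9.13-fold, or 1.68-fold with the higher floor. With 1 array per group, none of these differences between lists could be tested.

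Among markers of the squamous epithelium, 4 of 5 were detected on both arrays, with a median log2 difference after scaling of -0.52, and miR-203a-3p was on neither. Their intensities summed to 514 on the oe-NC-labelled array and 618 on the oe-HOTTIP-labelled array before scaling, and to 1.84 and 1.41 in units of each array's 90th percentile after it. Markers of blood cells were also detected in 4 of 5 (not miR-142-3p), with a median log2 difference of -0.40. The erythroid miR-451a was at -0.46 and miR-144-3p at -0.33, while miR-223-3p went the other way at 0.69. The remaining marker, miR-486-5p, passed the 2-fold threshold downward at -1.75. Its intensity on the oe-HOTTIP-labelled array was 5.91, under the higher floor of 6.44 for that array. The sums of the blood cell markers were 2277 and 2609 before scaling and 8.14 and 5.94 after it. Most of these sums was miR-451a, which alone read 2233 and 2552 before scaling. The direction of the sums thus turned with the scaling for both the epithelial and the blood cell markers. Of 3 liver and muscle markers, miR-122-5p was detected on both arrays, miR-133a-3p only on the oe-NC-labelled array, and miR-1-3p on neither. Their sums were 17.8 and 14.9 before scaling and 0.064 and 0.034 after it. Before scaling, miR-122-5p read 8.99 on the oe-NC-labelled array and 14.8 on the other, and miR-133a-3p 8.94 and 0.17. After scaling, miR-122-5p differed by 0.06 on the log2 scale. The bound of miR-133a-3p passed the 2-fold threshold downward at -2.53, and also with the higher floor. The part of these markers in the signals of miR-664b-5p and miR-3651 was not tested.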

How the data were processed

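The authors deposited the Agilent Feature Extraction output of each array, with a background-subtracted intensity per spot, and a table of normalized log2 values made in GeneSpring with a 90th percentile normalization, per the methods. Outlier, saturation and detection flags in the deposited output are 0 or 1. The methods and the submitters' processing notes name Feature Extraction 10.10, while the scanner output names 11.5.1.1.

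Control spots and outlier spots were left out, spots were averaged per probe and probes per miRNA, and log2 was taken after scaling. The members and lists were chosen with earlier results of these data known, and all 7 members are named. The rule that names the miRNAs most like the members could not be applied, since no member was detected on both arrays. For the higher floor, miRNAs were ordered by signal, and the first signal was taken whose window of 51 miRNAs was detected to 50% or more. Tools were limma 3.58.1 in R 4.3.3 for normexp, and pandas 2.3.3 with numpy 2.4.6 in Python 3.11.15 for the rest, with figures by matplotlib 3.10.9. Alternatives changed the scaling, summary, outlier filter, background correction (normexp from median spot signals), detection, floor and source of values. RefSeq held 2248 of the 2549 array names.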

Additional observations from a re-analysis of the deposited data

How the results depend on the processing

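The count of 2 members at least 2-fold higher stayed at 2 under 7 of 16 alternatives, all of them scalings or the keeping of outlier spots. It was 1 with the summed intensity per miRNA, where miR-664b-5p had a bound of 1.93-fold. It was 0 from the brightest probe, with normexp and an offset of 50 or 0, with detection by over 50% of spots well above background or by the mean plus 2 SD of the negative controls, with the higher floor, and in the authors' table with its columns as named or exchanged. Detection itself fell to 1 member by the mean plus 2 SD and to 0 by the 50% rule. The count of members at least 2-fold lower was 0 under all 16. No member was detected on the oe-NC-labelled array by any rule for the scanner output, so none could be counted as lower there. Over the alternatives of the scanner output that gave a bound, 10 of 14 for each, it ran from 1.07-fold to 6.01-fold for miR-3651 and from 1.18-fold to 6.31-fold for miR-664b-5p, highest without scaling, which moved the median log2 difference of all miRNAs detected on both arrays from 0.02 to 0.67. In the scanner output, a miRNA detected only on the oe-HOTTIP-labelled array gets no bound below 1, so the sign could not turn there. In the authors' table as its columns are named, the log2 values were -0.34 for miR-3651 and -0.28 for miR-664b-5p. That table lists both members under the opposite name. No median over members detected on both arrays exists, since none was. No paired analysis was possible because there is only 1 array per group, and no replicate could be left out. Signal over background limits every value here.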

Other observations

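A single spot of miR-664a-5p on the array labelled oe-NC had an intensity of 14.9 and was marked both as an outlier and as well above background. It was left out, and the other 19 spots there ran from -3.69 to 1.56.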
